A study of Mus musculus with 9 samples.

Results

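Nlgn2, Lrrn3, Dlg2 and Syt6 are 4 genes of synaptic membranes, followed here through 9 libraries that measured RNA bound to the mRNA export protein Chtop. They are 4 of the 22442 genes in the deposited count tables, found there by their symbols. They were selected on measured counts of these same libraries, taken here to be their differences between the Chtop isoforms and from input, so their own values below are a description and carry no test. The assay was iCLIP, in which ultraviolet light fixes RNA to protein and the RNA pulled down with that protein is sequenced. The cells were N2a Flp-In rtTA lines, derived from a mouse neuroblastoma, in which doxycycline (2 µg/mL for 24 h) switched on a FLAG-tagged cDNA, and they were crosslinked with 0.15 J/cm2 at 254 nm. One group of 3 libraries was the anti-FLAG precipitate of Chtop with exon 5, and another group of 3 was that of Chtop without exon 5. The third group was 3 size-matched inputs, taken from 2% of the lysate with no antibody step. Input replicate 1 came from the line without exon 5, input replicate 2 from the line with exon 5 and input replicate 3 from a FLAG-GFP line. The labels describe replicates as biological and name no deletion of the cells' own Chtop, and they do not say whether a line was 1 clone.

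Chtop belongs to the TREX machinery, which packages spliced mRNA and hands it to the nuclear export receptor. A synapse is held together by adhesion proteins on both of its sides, by scaffolds that anchor receptors beneath the receiving membrane, and by a release apparatus on the sending side. Nlgn2 encodes neuroligin-2, an adhesion protein of inhibitory synapses that binds neurexins. Lrrn3 encodes a neuronal transmembrane protein with leucine-rich repeats. Dlg2 encodes PSD-93, a scaffold of the postsynaptic density, and Syt6 encodes a synaptotagmin, a family of vesicle proteins known for calcium-dependent membrane fusion.

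Library totals ran from 783868 to 1328423 counts with exon 5, from 624062 to 1844970 without exon 5 and from 75504 to 173342 in the inputs. Levels are in CPM, which puts libraries of different depth on the same scale, after TMM factors that correct for library composition. A count of 3 in a library was worth 2.89 to 4.40 CPM with exon 5, 2.16 to 5.67 CPM without exon 5 and 16.8 to 21.7 CPM in the inputs, so low levels were hardest to see in the inputs. Of 14 neuronal and neuroblastoma markers, 10 had a symbol in the tables, and their summed level was 1099 to 1396 CPM with exon 5, 866 to 967 CPM without and 543 to 1394 CPM in the inputs. Of 8 markers of other cell types, 3 had a symbol (Mbp, Col1a1 and Col1a2). Their summed level was 1.47 to 18.3 CPM with exon 5, 5.75 to 26.6 CPM without and 0 to 72.4 CPM in the inputs, and Col1a2 was at 0 in all 9 libraries. Chtop itself averaged 385 ± 20.6 CPM with exon 5, 238 ± 36.7 CPM without and 175 ± 256 CPM in the inputs (SD, n = 3 each), and these counts do not separate the isoforms or tell cDNA from the cells' own mRNA.

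Nlgn2 ran opposite to the other genes, with more counts on Chtop without exon 5. The gene (ENSMUSG00000051790.15) lies on chromosome 11, from 69823123 to 69837784 in GRCm38, and its deposited lengths are 2508 bases of coding sequence (CDS) and 3232 bases of 3′ UTR. Its total was 310, 318 and 566 CPM with exon 5, against 612, 544 and 1397 CPM without exon 5 and 0, 78.4 and 0 CPM in the inputs. The isoform groups overlapped, because replicate 3 with exon 5 stood above replicate 2 without it. The mean was 398 ± 145 CPM with exon 5, against 851 ± 474 CPM without it (SD, n = 3 each), a ratio of 0.468 and an edgeR log2 fold change of −1.10 (SE 0.96). Replicate 3 of the isoform without exon 5 alone held 71.5% of that group's raw Nlgn2 counts, and without it the log2 fold change was −0.54. It was also the deepest library of its group, with 1844970 counts against 624062 and 1005472, which raises its share of raw counts. In these bulk libraries, fewer cells holding an RNA, less RNA per cell and less binding to Chtop cannot be told apart.

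For Nlgn2 the isoform groups overlapped in the CDS and not in the 3′ UTR, and a difference between the parts was not tested. In the 3′ UTR it had 178, 158 and 281 CPM with exon 5, against 331, 353 and 942 CPM without, and the groups did not overlap. The log2 fold change there was −1.42 (SE 1.13), and it was −0.74 once that library was left out. In the CDS it had 132, 160 and 285 CPM with exon 5, against 281, 191 and 454 CPM without, and the groups overlapped (log2 fold change −0.70, SE 0.92). The CDS value was −0.30 without the same library and −1.12 without replicate 3 with exon 5. No input held a CDS count of Nlgn2, so its CDS level was at least 10.1-fold higher than input with exon 5 and at least 16.2-fold higher without, taking 3 counts per input library as the limit. All 14 input counts of the gene lay in the 3′ UTR of input replicate 2.

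**Figure D1:**
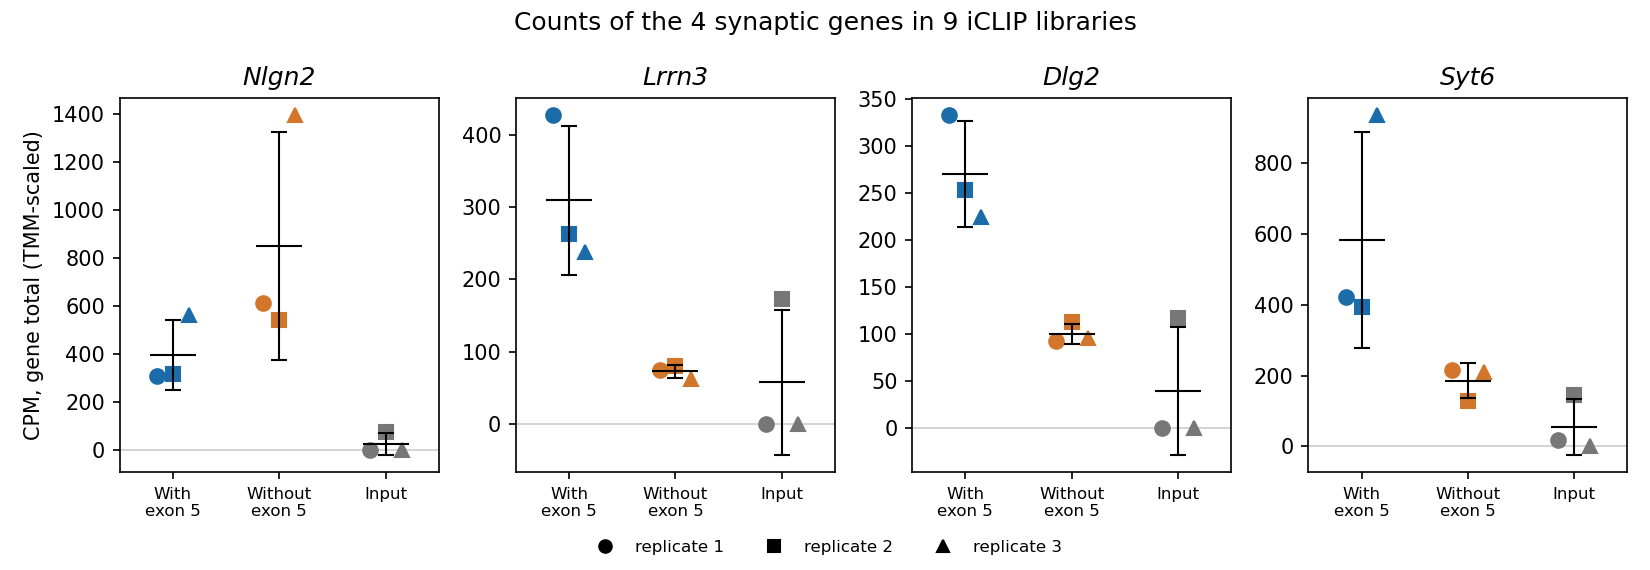
Level of each gene in the 9 libraries, in CPM of the gene total (TMM-scaled, linear axes that differ between panels). Points are libraries, and black bars are the mean and SD of 3 libraries. Lrrn3, Dlg2 and Syt6 stand higher with exon 5 in every library, while Nlgn2 peaks at 1397 CPM in replicate 3 without exon 5, and input replicate 2 carries nearly all input counts.

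Lrrn3 had the widest ratio between the isoforms of the 4 genes. The gene (ENSMUSG00000036295.5) lies on chromosome 12, from 41451668 to 41486057, with a CDS of 2121 bases and a 3′ UTR of 1744 bases. Its total was 427, 263 and 239 CPM with exon 5, against 75.6, 81.0 and 63.3 CPM without exon 5 and 0, 174 and 0 CPM in the inputs. Every library with exon 5 stood above every library without it, and the mean was 309 ± 103 CPM with exon 5, against 73.3 ± 9.08 CPM without it (SD, n = 3 each). That is a ratio of 4.22 and a log2 fold change of 2.08 (SE 1.27). The CDS averaged 198 ± 53.7 CPM with exon 5 and 53.1 ± 3.66 CPM without (log2 fold change 1.88, SE 1.33). The 3′ UTR averaged 111 ± 62.1 CPM with exon 5 and 20.2 ± 5.53 CPM without (log2 fold change 2.43, SE 1.30), and neither part overlapped between the isoforms.

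Dlg2 was higher with exon 5, and nearly all of its counts on Chtop lay in the coding sequence. The gene (ENSMUSG00000052572.19) lies on chromosome 7, from 90476188 to 92449246, and has deposited lengths of 476 bases of 5′ UTR, 3717 bases of CDS and 4633 bases of 3′ UTR. Its total was 333, 254 and 224 CPM with exon 5, against 92.6, 112 and 96.3 CPM without exon 5 and 0, 118 and 0 CPM in the inputs. The isoform groups did not overlap, at a mean of 270 ± 56.4 CPM with exon 5, against 100.4 ± 10.5 CPM without it (SD, n = 3 each), a ratio of 2.69 and a log2 fold change of 1.43 (SE 1.20). CDS counts numbered 212, 158 and 204 with exon 5 and 43, 87 and 134 without, and no input held any. The CDS level was therefore at least 13.0-fold higher than input with exon 5 and at least 4.96-fold higher without. The 3′ UTR, although longer than the CDS, held only 15, 15 and 29 counts with exon 5 and 6, 6 and 0 without, against 21 counts in input replicate 2. The 5′ UTR had no count in any library, where 0 of 633 counts with exon 5 allows a share of up to 0.474% and 0 of 276 without exon 5 allows up to 1.09%.

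Syt6 was higher with exon 5, and most of its counts on Chtop lay in the 3′ UTR, its longest part. The gene (ENSMUSG00000027849.19) lies on chromosome 3, from 103575245 to 103645567, with 469 bases of 5′ UTR, 1805 bases of CDS and 3136 bases of 3′ UTR. Its total was 423, 394 and 937 CPM with exon 5, against 217, 128 and 210 CPM without exon 5 and 18.5, 146 and 0 CPM in the inputs. The isoform groups did not overlap, at a mean of 585 ± 305 CPM with exon 5, against 185 ± 49.5 CPM without it (SD, n = 3 each), a ratio of 3.16 and a log2 fold change of 1.66 (SE 1.01). Replicate 3 with exon 5 stood far above the other libraries because of its 3′ UTR, which had 277, 207 and 840 CPM with exon 5, against 111, 87.0 and 172 CPM without. The 3′ UTR log2 fold change was 1.81 (SE 1.10), and it was 0.93 without that library. In the CDS the same library was the lowest of its group, with 145, 188 and 90.4 CPM with exon 5, against 92.6, 41.1 and 38.1 CPM without, and the groups overlapped (log2 fold change 1.30, SE 1.16). Per kilobase, the 3′ UTR and the CDS lay within their spread. They had 141 ± 111 and 78.2 ± 27.0 CPM with exon 5, and 39.4 ± 13.9 and 31.7 ± 17.0 CPM without.

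Across the comparison of the isoforms, 0 of 8342 genes passed edgeR's quasi-likelihood test at an adjusted p of 0.05 (0% of genes in each direction). At an unadjusted p under 0.05 there were 93 genes, while DESeq2 called 0 and limma-voom called 2. Among gene parts, 0 of 12190 passed, with 183 at an unadjusted p under 0.05, 1 called by DESeq2 and 0 by limma-voom. Totals of Lrrn3, Dlg2 and Syt6 did not overlap between the isoforms, which held with exon 5 higher for 6.49% of all genes tested and with exon 5 lower for 7.43%. The CDS of Lrrn3 and Dlg2 did not overlap either (6.29% of CDS tested were higher in this way and 7.36% lower), nor did the 3′ UTR of any of the 4 genes (6.61% higher and 6.31% lower). Among all tested genes the isoform log2 fold change lay at percentile 97.6 for Lrrn3, 95.6 for Syt6, 94.1 for Dlg2 and 10.4 for Nlgn2. The direction between the isoforms was the same in all 18 settings for the total, CDS and 3′ UTR of each gene. These settings refit the counts on which the genes are taken to have been chosen. Neither the percentiles nor the kept direction is therefore separate support.

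The authors' deposited table sorts gene parts into isoform classes, under a heading that names a log2 fold change of 1 and the same direction in all replicates. In the authors' deposited table, 335 of 336 CDS and 273 of 275 3′ UTRs of the exon 5 class met that rule, as did 377 of 377 CDS and 281 of 282 3′ UTRs of the class lacking exon 5. In the authors' deposited table, the exon 5 class holds the CDS of Dlg2 (log2 fold change 1.43), both parts of Syt6 (1.37 in the CDS and 1.85 in the 3′ UTR) and both parts of Lrrn3 (1.95 and 2.48). The authors' deposited table gives the Nlgn2 3′ UTR (−1.41) to the class lacking exon 5 and its CDS (−0.64) to the class shared by both. These classes come from the same libraries, so the placing is no separate evidence. Over all genes, the authors' deposited table puts 7.41% of listed CDS in the exon 5 class, 8.32% in the class lacking exon 5 and 84.3% in the shared class. For 3′ UTRs, the authors' deposited table puts 9.87% in the exon 5 class, 10.1% in the class lacking exon 5 and 80.0% in the shared class.

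Set against length, the order of the genes depended on the isoform. Per kilobase of counted sequence, Syt6 had 108 ± 56.4 CPM, Lrrn3 80.1 ± 26.6, Nlgn2 69.3 ± 25.3 and Dlg2 30.6 ± 6.39 on Chtop with exon 5 (SD, n = 3 each), and the first 3 of these lay within each other's spread. Without exon 5, Nlgn2 came first with 148 ± 82.6 CPM per kilobase, ahead of Syt6 with 34.2 ± 9.14, Lrrn3 with 19.0 ± 2.35 and Dlg2 with 11.4 ± 1.19, each farther from the next than their SDs. The density in the CDS separated the genes little with exon 5, at 93.5 ± 25.3 CPM per kilobase for Lrrn3, 78.2 ± 27.0 for Syt6, 76.6 ± 32.4 for Nlgn2 and 66.3 ± 15.8 for Dlg2. In the 3′ UTR, by contrast, Dlg2 had 5.17 ± 0.734 CPM per kilobase with exon 5, against 141 ± 111 for Syt6, 63.7 ± 35.6 for Lrrn3 and 63.6 ± 20.4 for Nlgn2.

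**Figure D2:**
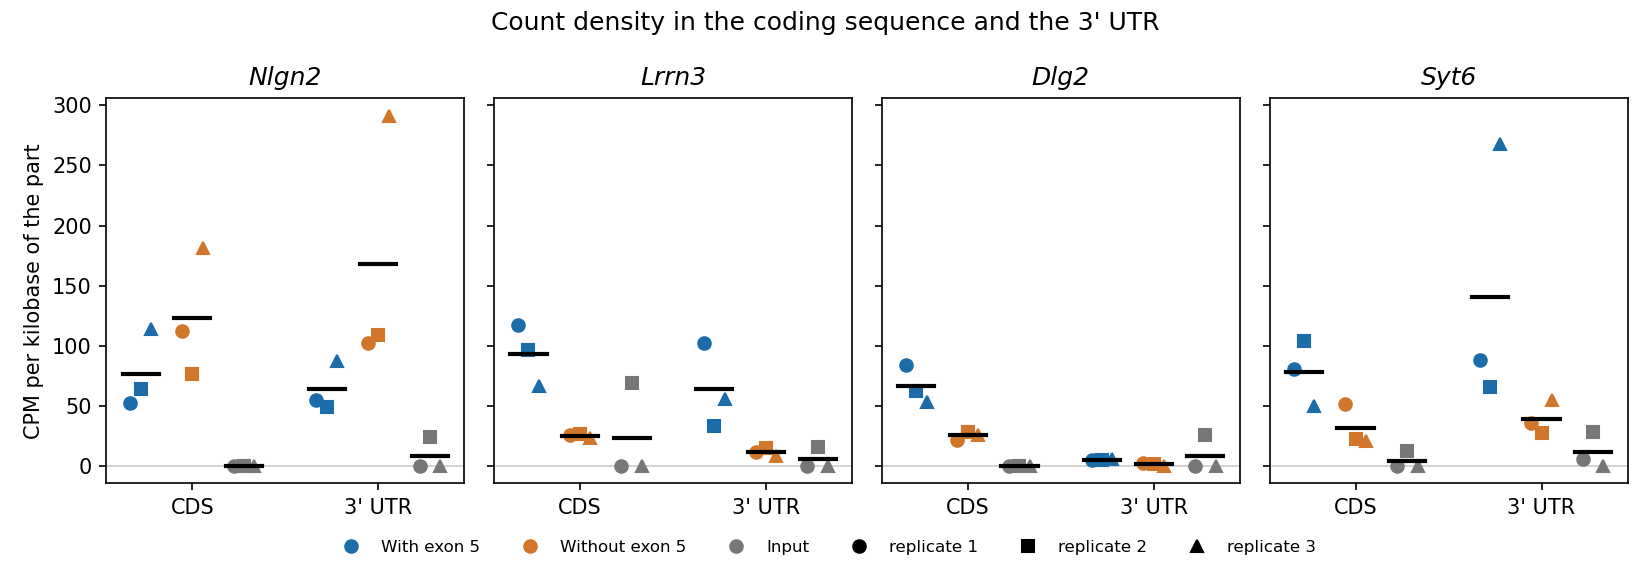
Level per kilobase of the CDS and of the 3′ UTR for each gene, in CPM per kilobase on 1 shared linear axis. Points are libraries and black lines are group means. The 3′ UTR of Dlg2 stays near 0 in both isoforms while its CDS averages 66.3 CPM per kilobase with exon 5.

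The 4 genes also differed in where along the mRNA their counts fell. The CDS held 90.8% ± 2.96 of Dlg2 counts with exon 5 and 93.8% ± 6.13 without (SD, n = 3 each), against a median gene's 58.4% with exon 5 and 59.7% without. For Lrrn3 it held 65.2% ± 11.3 with exon 5 and 72.8% ± 4.32 without, and for Nlgn2 47.7% ± 4.41 with exon 5 and 37.9% ± 7.14 without. Syt6 had the lowest share, 30.5% ± 19.3 with exon 5 and 30.9% ± 12.3 without, with 9.65% in replicate 3 with exon 5. For each gene the CDS shares of the isoform groups overlapped. In the inputs, 0 of 14 Nlgn2 counts and 0 of 21 Dlg2 counts lay in the CDS (upper Wilson 95% limits 21.5% and 15.5%), against 26 of 31 Lrrn3 counts (83.9%, 67.4% to 92.9%) and 4 of 29 Syt6 counts (13.8%, 5.50% to 30.6%). Over genes with input counts the median share in the inputs was 46.7% and the lower quartile was 0%, so a share of 0% was common there. Such intervals cover counting error only.

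**Figure D3:**
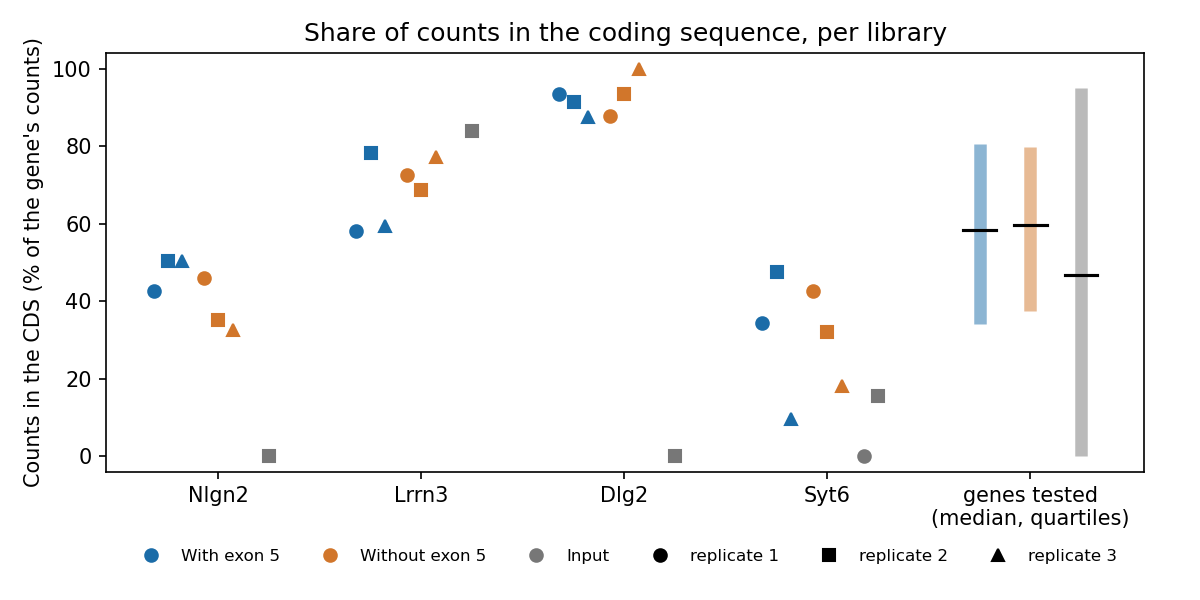
Share of each gene's counts that fell in the CDS, in percent, for every library with a count, and the median and quartiles over genes tested. Dlg2 lies between 87.6% and 100% in the 6 isoform libraries, and its only input with counts is at 0%.

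Against the inputs, the result rested on a single library. Nlgn2, Lrrn3 and Dlg2 had input counts only in input replicate 2, as did 24.4% of the genes tested, and for Syt6 that library held 26 of 29 input counts. It came from the line with exon 5, while the input from the line without exon 5 held 0 counts of those 3 genes and 3 counts of Syt6. Input replicate 2 was also the deepest input, with 173342 counts and 7412 genes with a count. Input replicate 1 had 111982 counts and 4665 genes, and input replicate 3 had 75504 counts and 3129 genes. With 1 input per line, depth of the input, mRNA levels of the lines and binding cannot be told apart. The log2 fold change over input was 3.86 (SE 1.12) with exon 5 and 4.96 (SE 1.17) without for Nlgn2, and 3.39 (SE 1.11) with exon 5 and 1.73 (SE 1.06) without for Syt6. It was 2.75 (SE 1.29) with exon 5 and 1.32 (SE 1.25) without for Dlg2, and 2.39 (SE 1.32) with exon 5 and 0.31 (SE 1.27) without for Lrrn3. The median of all genes was 1.03 in both comparisons. The last of these, Lrrn3 without exon 5, turned to −0.15 with scaling by library size alone.

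Set against input replicate 2 alone, the mean level of Nlgn2 was 5.07 times as high with exon 5 and 10.9 times as high without. For Lrrn3 these ratios were 1.78 with exon 5 and 0.422 without, for Dlg2 2.30 and 0.854, and for Syt6 4.02 and 1.27. Against the other two inputs, both at 0, Lrrn3 was at least 15.4-fold higher with exon 5 and at least 3.64-fold higher without, and Dlg2 at least 13.4-fold higher with exon 5 and at least 4.99-fold higher without.

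Close relatives of the 4 genes had smaller fitted differences between the isoforms, which the choice of the 4 by their differences can set, and no gene tested passed in this comparison. Dlg1, Dlg3, Dlg4 and Dlg5, which encode related scaffolds, ranged from −0.40 to 0.55 in log2 fold change. Syt1, Syt7, Syt11 and Syt14 ranged from −0.18 to 0.98, Nlgn3 was at 0.20 and Lrrn2 at −0.07, and Lrrn1 had no count in any library. The standard errors of these values overlapped those of the 4 genes in several cases, and the difference between a gene and its relatives was not tested.

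**Figure D4:**
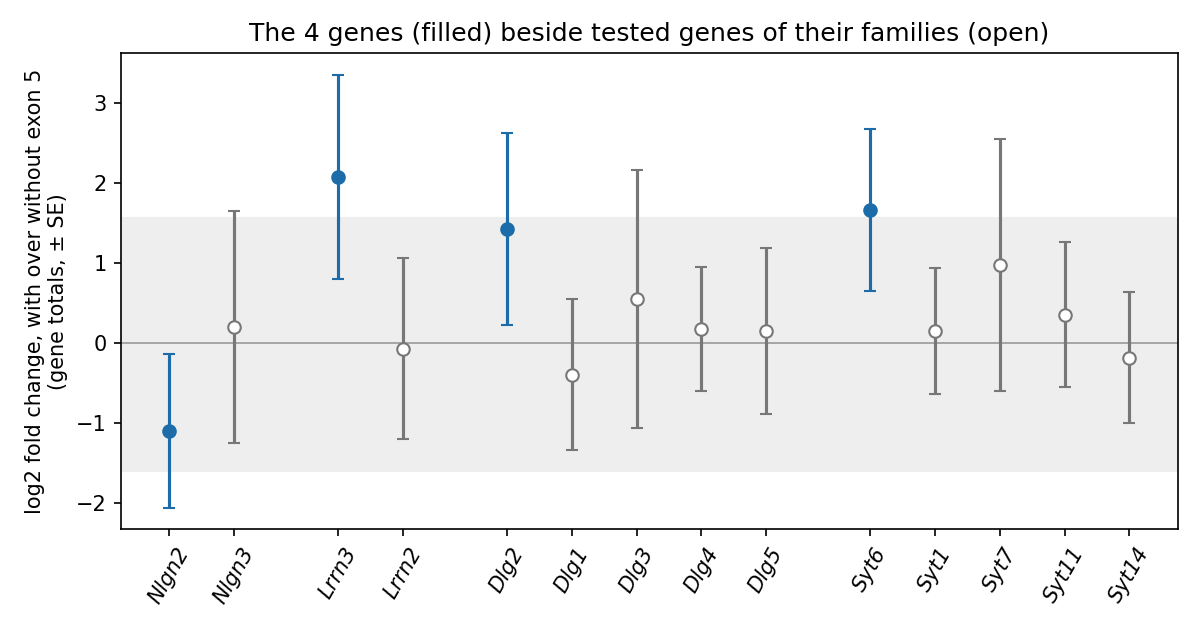
Log2 fold change of gene totals, with over without exon 5, for the 4 genes (filled) and the tested genes of their families (open), with bars of 1 SE. The grey band spans the 5th to the 95th percentile of all 8342 genes tested (−1.60 to 1.56), and the relatives lie between −0.40 and 0.98.

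Other synaptic genes passed over input with each isoform, and none passed between the isoforms. Of 161 genes listed by role, 68 could be tested, and 13 of these passed higher than input with exon 5 (19.1%, against 10.1% of all named genes and 8.31% of all genes) and 11 without (16.2%, against 9.90% and 8.12%). The lists were chosen with earlier results of these data known. Of the 68, 6 had no count in any input, as did 14.6% of all genes tested. All 6 were among the 13 that passed with exon 5 and among the 11 without, so both shares rest in large part on them. Such genes entered the test only through the isoform libraries, so their calls over input are no separate support. In this edgeR fit none of the 68 passed lower, where 0.863% of all genes did with exon 5 and 0.587% without, and between the isoforms 0 of the 68 had an unadjusted p under 0.05. The median log2 fold change of the 68 over input was 1.85 with exon 5 and 1.65 without. With genes at 0 in every input set to their bound, it was 1.77 and 1.49. The medians over all genes, set in the same way, were 0.70 and 0.72, but they include genes without a symbol. A median over named genes alone is not given, so the listed genes and all genes are not a like comparison. Many symbols come only from the authors' isoform table, which lists genes with counts on Chtop, so a named gene had a better chance of being high there. The count with exon 5 was 3 without its replicate 1 and 0 without its replicate 2 or 3, was 6, 3 and 6 without replicates 1, 2 and 3 of the isoform lacking exon 5, and was 28 without input replicate 2. The count without exon 5 was 2, 1 and 0 without its own replicates 1, 2 and 3, was 5 without any library with exon 5, and was 28 without input replicate 2. Both counts were 0 when only the groups compared were fitted. Calls over all genes fell in these settings too. With exon 5, 693 genes passed higher in the main fit, and 166, 59 and 49 when its replicates 1, 2 and 3 were left out in turn. For the isoform lacking exon 5 there were 677, and 136, 96 and 31 when its own replicates were left out. With only the groups compared, 17 of 6020 genes passed higher with exon 5 and 16 of 5671 without.

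Among the parts of these listed genes, 32 of 121 passed higher with exon 5, where 15.5% of all parts did (0.722% lower). Without exon 5, 30 passed higher, where 16.0% of all parts did (0.451% lower). Parts with no input count entered the test only through the isoform libraries, so their calls are no separate support, and their number is not given. All parts include those of genes without a symbol, so here too the comparison is not a like one. The count with exon 5 was 4 without its replicate 2 or 3 and 60 without input replicate 2, and the count without exon 5 was 0 without its replicate 3 and 58 without input replicate 2. Over all parts, 280 and 249 passed higher with exon 5 when its replicates 2 and 3 were left out, and 3819 when input replicate 2 was. For the isoform lacking exon 5, 7 passed higher when its replicate 3 was left out and 3885 when input replicate 2 was. By role, the median log2 fold change of gene totals over input was 1.97 with exon 5 and 1.62 without for scaffolds, 1.47 and 0.91 for release genes, and 0.86 and 1.30 for the 6 receptor genes tested. Of those 6, 1 passed with exon 5 and 0 without. Adhesion genes had a median of 2.14 with exon 5 and 1.78 without, or 1.988 and 1.503 with those at 0 in every input set to their bound.

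Among release genes, 3 of 25 passed with each isoform (12.0%, near the 10.1% and 9.90% of named genes). Unc13a, a priming factor of synaptic vesicles, averaged 1289 ± 401 CPM with exon 5, 1122 ± 218 CPM without and 166 ± 113 CPM in the inputs (edgeR log2 fold change 2.96, adjusted p = 0.0145 with exon 5, and 2.76, adjusted p = 0.0176 without). Rims2, an active zone scaffold, averaged 967 ± 212 CPM with exon 5, 716 ± 30.9 CPM without and 172 ± 35.3 CPM in the inputs (edgeR adjusted p = 0.0187 with exon 5 and 0.0353 without). Ppfia3, a liprin, had no input count and was at least 9.69-fold higher with exon 5 and at least 12.1-fold higher without.

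Among adhesion genes, 6 of 21 passed with each isoform (28.6%, beside 10.1% and 9.90% of named genes). Of the 21, 4 had no input count and entered the test only through the isoform libraries, so their calls are no separate support. Adgrl1, a latrophilin, averaged 2002 ± 188 CPM with exon 5, 1674 ± 151 CPM without and 454 ± 302 CPM in the inputs (edgeR adjusted p = 0.0227 with exon 5 and 0.0344 without). Lrfn1, Lrfn3, Lrfn4 and the neurexin gene Nrxn3 had no input count, with bounds from at least 2.43-fold for Lrfn3 to at least 6.09-fold for Lrfn4 with exon 5, and from at least 2.71-fold for Lrfn1 to at least 7.10-fold for Lrfn4 without. Ntng2, with 2 input counts in all, stood at 46.8 times the input with exon 5 (95% counting interval 12.9 to 388) and 33.2 times without (9.12 to 275).

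Among scaffolds, 3 of 16 passed with exon 5 (18.8%, beside 10.1% of named genes) and 2 without (12.5%, near the 9.90% of named genes). Dlgap4, which binds Dlg proteins, had no input count and was at least 11.6-fold higher with exon 5 and at least 7.16-fold higher without. Gphn, the gephyrin gene of inhibitory synapses, had 1 input count and stood at 59.2 times the input with exon 5 (95% counting interval 10.5 to 2345) and 92.8 times without (16.6 to 3674). Shank2 had 6 input counts, all in input replicate 2. Its edgeR log2 fold change over input was 4.50 with exon 5 (adjusted p = 0.0388) and 3.87 without (adjusted p = 0.0605).

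**Figure D5:**
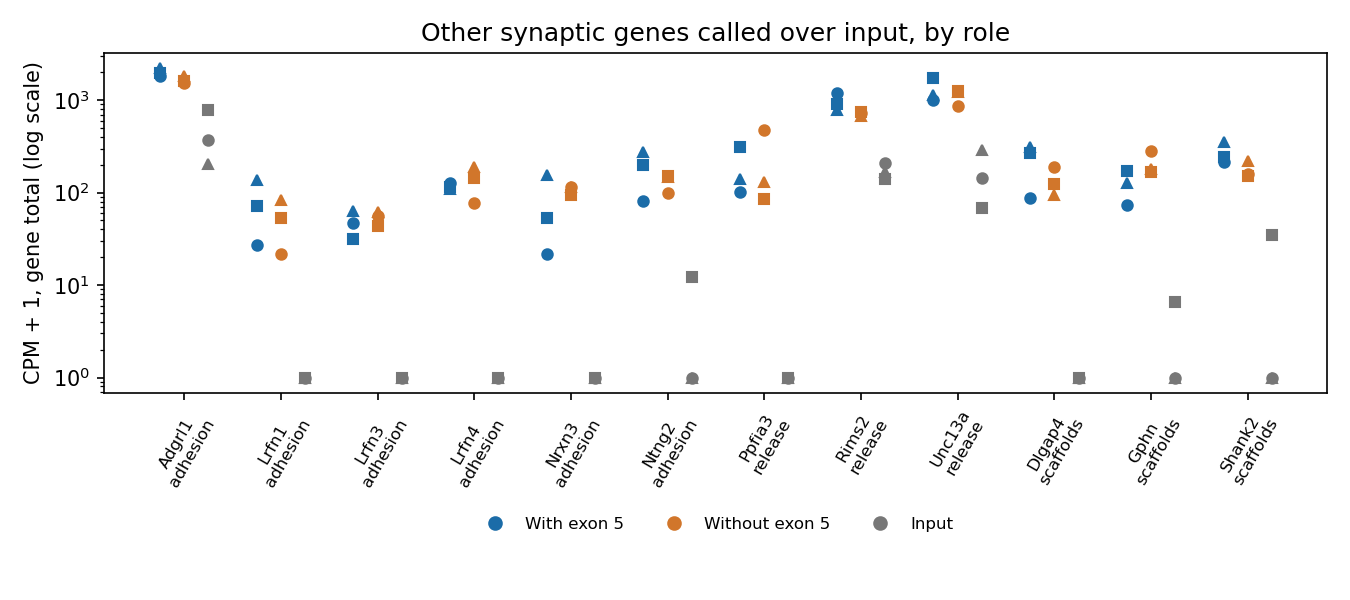
Level of 12 other synaptic genes that passed over input, as CPM + 1 of the gene total on a log axis, ordered by role. Points are libraries, and a value of 1 stands for no count. Isoform libraries lie above the inputs for each gene, and none of the 12 passed between the isoforms.

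The genes whose levels ran most like each of the 4 were found by Pearson's r of log2 CPM over the 9 libraries, among 6773 named genes. For Nlgn2 they were Usp11 (r = 0.999), Ythdc1 (0.996) and Tmem131l (0.995). For Lrrn3 they were Dlg2 (0.990), Cnr1 (0.990) and Tysnd1 (0.990), and for Dlg2 they were Tspyl2 (0.995), Tysnd1 (0.994) and Wasf3 (0.991). For Syt6 they were Kdm5c (0.986), Atp8a1 (0.983) and Sntb2 (0.973). Among the 4 genes r ran from 0.827 for Nlgn2 and Lrrn3 to 0.990 for Lrrn3 and Dlg2. All these values share the same libraries and the low inputs, and they describe likeness only.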

How the data were processed

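For 9 libraries the authors deposited raw counts of each gene's 5′ UTR, CDS and 3′ UTR and of their sum, per the file headers. They also deposited part lengths, and a table with a normalized signal, log2 fold changes and isoform classes per gene part, per the file headers. In that deposited signal, 100% of values were the count divided by a factor shared by the library's column, within 0.1%. TopHat2, DESeq2 and the build mm10 are named per the submitters' processing notes. Not given in the sources used here are the counting tool, strand handling and collapsing of duplicate reads: antisense or overlapping genes cannot be told apart and intervals cover counting error only. In all, 9 columns of per-sample values were not used.

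Gene totals (8342 genes) and gene parts (12190) were tested with edgeR 4.0.16 in R 4.3.3 (quasi-likelihood, robust, TMM, filterByExpr at min.count 10 and min.total.count 15), all 9 libraries in 1 fit, with Benjamini-Hochberg adjustment at 0.05. DESeq2 1.42.0, limma-voom (limma 3.58.1), other scalings, no filter, only the groups compared, a replicate block and leaving out each library were alternatives. Likeness used log2 CPM with a prior count of 2. Where all inputs were at 0, a fold is a lower bound against the mean CPM of 3 counts per input library. Coordinates are from RefSeq's GRCm38.p6 table, matched by symbol for 4 of 4 genes. The genes and lists were chosen with earlier results of these data known. Genes named are the 4, Chtop, each listed synaptic gene that passed in a comparison of totals, relatives as ranges, and the 3 most alike per gene. One listed gene that passed, counted in the list totals, and 1 cell type marker, left out of the marker sums, are not reported here. Of 22442 genes, 11718 had a symbol. Replicate numbers did not pair the libraries, as described in the closing section.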

Additional observations from a re-analysis of the deposited data

How the results depend on the processing

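The number of listed synaptic genes that passed against input, in either direction, depended on the processing. For gene totals it was 13 with exon 5 and 11 without. With exon 5 it was 17 with DESeq2 (1 of them lower), 16 with limma-voom, 5 with library size alone and 9 with RLE factors. It was 19 with no filter and 0 with only the groups compared. Over all genes, 693 passed higher with exon 5 in the main setting. That number was 1296 with DESeq2 (where 399 passed lower), 789 with limma-voom, 262 with library size alone, 359 with RLE factors and 1012 with no filter. Without exon 5, the number of listed genes was 18 with DESeq2 (3 of them lower), 17 with limma-voom and 4 with library size alone. It was 6 with RLE factors, 20 with no filter (1 of them lower) and 0 with only the groups compared. Over all genes, 677 passed higher without exon 5 in the main setting, beside 1220 with DESeq2 (where 383 passed lower). The number over all genes was 904 with limma-voom, 210 with library size alone, 302 with RLE factors and 1037 with no filter (where 147 passed lower). With only the groups compared, 17 of 6020 genes passed higher with exon 5 and 16 of 5671 without. For parts of the listed genes the number was 32 with exon 5 and 30 without. Library size alone gave 2 with exon 5 and 1 without, RLE factors 14 and 11, and only the groups compared 0 and 0. The calls over all parts moved too, with 166 higher with exon 5 and 131 without under library size alone, beside 1887 and 1946 in the main setting. RLE factors gave 579 and 573 over all parts, and only the groups compared gave 3 and 2. Leaving out 1 library gave 0 to 28 for totals with either isoform, 4 to 60 for parts with exon 5 and 0 to 58 for parts without. Without input replicate 2, which gave the highest of these, 2258 of 9089 genes passed higher with exon 5 and 2237 without. The comparison of the isoforms gave 0 listed genes in all 18 settings. The causes were not tested.

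Same-numbered libraries deviated together at correlations of −0.015 to 0.039, so the numbers were not taken as pairs. A replicate block by the labels' numbers gave 5 listed genes with exon 5 and 7 without for totals, and 22 and 20 for parts. Over all genes that block gave 248 higher with exon 5 and 263 without, and over all parts 1063 and 1139. A replicate block by the numbers in the column names, which differ for the inputs and which was added after seeing the data, gave 5 and 5 for totals and 19 and 18 for parts.

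For Lrrn3 without exon 5 over input, the log2 fold change of 0.31 reversed to −0.15 with library size alone, −0.010 with RLE factors, −0.15 without input replicate 1 and −0.24 without input replicate 3. Leaving out 1 library gave −0.24 to 8.66, the highest without input replicate 2, where the remaining inputs were at 0. Of the other values for single genes, 359 moved by less than their spread and 9 by more in the same direction. That spread was an SD, and it was wide for gene totals over input, at 2.58 to 3.06 log2 units. A move within it can be large: Syt6 with exon 5 over input went from 3.39 to 5.94 without input replicate 2. In the inputs 3 counts were worth 16.8 to 21.7 CPM, which bounds the folds against them.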
